A study of Mus musculus with 12 samples.

Results

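The genes described here encode 9 inhibitors of bone morphogenetic protein (BMP) and activin signaling: Nog, Chrd, Chrdl1, Chrdl2, Grem1, Fst, Fstl3, Bambi and Twsg1. They were taken by symbol from the 28244 genes listed, as secreted or membrane inhibitors of these ligands, and all 9 passed the filter on low values. RNAseq was done on cell pellets of murine mesenchymal progenitors, isolated from the heads and condyles of femurs and tibiae of C57/BL6 pups that were 5 or 6 days old. The pellets spent 7 days in chondrogenic medium (D7) and were then moved to osteogenic medium. They were harvested after 1 day (D8), 3 days (D10) or 21 days (D28) in it, with 3 libraries per time point and 12 in all. No genotype or drug differed between the groups. Pellets kept in chondrogenic medium beyond D7 were not analysed here, so that the change of medium and the time in culture cannot be told apart. The labels do not say that replicates came from separate animals or cultures, and the p-values measure only the spread between these libraries.

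BMPs and activins are secreted dimers that bring together type I and type II serine/threonine kinase receptors, whose signal runs through the SMAD proteins. Secreted antagonists bind the dimers and keep them from the receptors. In cartilage, BMP signaling drives chondrocyte differentiation and hypertrophy, and noggin, chordin and gremlin are classical brakes on it in the growth plate and the joint.

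Noggin (Nog, chr11:89300638-89302332, GRCm38, minus strand) is a BMP trap encoded by 1 exon. Chordin (Chrd, chr16:20733127-20742384, plus strand) and the chordin-like genes Chrdl1 (chrX:143285674-143394262, minus strand) and Chrdl2 (chr7:100006172-100034728, plus strand) encode traps with cysteine-rich BMP-binding repeats. Gremlin 1 (Grem1, chr2:113746164-113758646, minus strand) is a cystine-knot antagonist of BMP2 and BMP4. Follistatin (Fst, chr13:114452290-114458951, minus strand) and its relative Fstl3 (chr10:79777272-79782630, plus strand) bind activins with high affinity. Bambi encodes a membrane pseudoreceptor without a kinase domain. Twisted gastrulation (Twsg1, chr17:65921972-65951226, minus strand) binds chordin and BMP and can act for or against the ligand. In the GENCODE annotation, exons overlap antisense exons of another gene over 239 bases for Chrd, 115 bases for Fst and 1157 bases for Fstl3 (with Prss57). The kit kept strand, but the strand setting of the counting is not given in the sources used here, so reads from these partners may be included. No member shared exon bases with a gene on its own strand.

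RefSeq promoter windows (GRCm38.p6) matched 4 of the 9 genes: Chrd, Grem1, Fstl3 and Twsg1. Nog, Chrdl1, Chrdl2, Fst and Bambi had no entry. The 250 bases before the start site are shown for the gene that rose at every later time point (Grem1) and for the genes called lower at both D10 and D28 (Chrd and Fstl3). Capitals mark matches, on either strand, to motifs that were chosen after the data were seen: GGCGCC (the GC-rich BMP SMAD element), CAGAC (the SMAD box), TGANTCA (AP-1), ACAATG (SOX), GGGCGG (the GC box) and TATAAA (the TATA box). Neighbouring GC box matches overlap or touch in Chrd and Fstl3.
Grem1, chr2:113758649-113758898, minus strand: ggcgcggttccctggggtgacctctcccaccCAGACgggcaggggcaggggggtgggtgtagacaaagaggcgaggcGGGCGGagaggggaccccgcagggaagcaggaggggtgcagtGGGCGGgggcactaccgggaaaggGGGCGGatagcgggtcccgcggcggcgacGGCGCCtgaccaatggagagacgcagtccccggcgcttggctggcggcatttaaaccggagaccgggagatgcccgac
Chrd, chr16:20732877-20733126, plus strand: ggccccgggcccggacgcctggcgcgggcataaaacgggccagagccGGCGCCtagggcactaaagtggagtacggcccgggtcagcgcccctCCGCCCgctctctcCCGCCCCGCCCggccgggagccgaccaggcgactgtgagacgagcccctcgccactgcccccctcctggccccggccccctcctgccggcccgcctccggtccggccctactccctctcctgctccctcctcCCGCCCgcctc
Fstl3, chr10:79777024-79777273, plus strand: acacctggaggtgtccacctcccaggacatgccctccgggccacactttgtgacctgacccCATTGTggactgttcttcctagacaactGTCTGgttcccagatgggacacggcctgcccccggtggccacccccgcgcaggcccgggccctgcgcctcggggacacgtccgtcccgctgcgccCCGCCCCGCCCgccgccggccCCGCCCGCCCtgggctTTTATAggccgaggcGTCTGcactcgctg
The GGCGCC element was present once in Grem1, from 78 to 73 bases before the start, and once in Chrd, from 203 to 198 bases before it. It was in 9.59% of the 32851 windows of this length, and Fstl3 had no match. CAGAC, found in 42.2% of windows, occurred 1 time in Grem1 and 2 times in Fstl3. Fstl3 also held TATAAA from 29 to 24 bases before its start (12.4% of windows) and ACAATG (10.7% of windows). GC boxes were found in all of the printed windows, with 3 matches in Grem1 and 4 each in Chrd and Fstl3, against 32.7% of windows with at least 1. TGANTCA, in 6.75% of windows, was in none of them. GC content was 72% in Grem1, 78% in Chrd and 71.2% in Fstl3, against a median of 52.4% over all windows. These matches describe the letters of the windows only, and the gene that rose and a gene that fell both carry the GC-rich element.

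The deposited value is the log2 of an equalized read count plus 1, and levels below are on this scale unless they are given per kb. Equalization gave the libraries nearly the same set of sorted values, so library totals are not kept, and relative depth was read from the spacing of low values. It ran from 0.730 to 1.31, with its lowest median at D10 (0.919) and its highest at D28 (1.27). A count of 3 reads stood at a log2 value of at most 2.87, and the lowest value of any of the 9 genes was 6.69, so none of them was near the floor. Cartilage markers were present throughout: none of 10 chondrocyte markers was at 0 in any library. Of 10 osteoblast and osteocyte markers, 9 were tested; in D28 against D7, Bglap, Dmp1, Phex and Spp1 were called higher and Col1a1 and Ibsp lower, and in D10 against D7, 4 were called higher and 4 lower. Sost, a defining osteocyte gene, was at 0 in every library of D8, D10 and D28. Time points were compared with limma over 17674 genes, and a gene was called where it differed by 1 or more on the log2 scale with a Benjamini-Hochberg adjusted p under 0.05.

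Most inhibitors of the set went down within 3 days of osteogenic medium, and 1 went up. In D10 against D7, 7 of 9 genes were called lower (Nog, Chrd, Chrdl1, Chrdl2, Fst, Fstl3 and Bambi) and Grem1 was called higher, while 10.4% of all tested genes were called lower and 8.50% higher. Twsg1 did not pass. The median log2 fold change was -2.14 over the 9 genes and 0.05 over all tested genes. By D28 Nog, Chrdl1 and Chrdl2 had risen again, Chrd and Fstl3 were still called lower than at D7, and Grem1 and Fst were called higher than at D7.

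**Figure D1:**
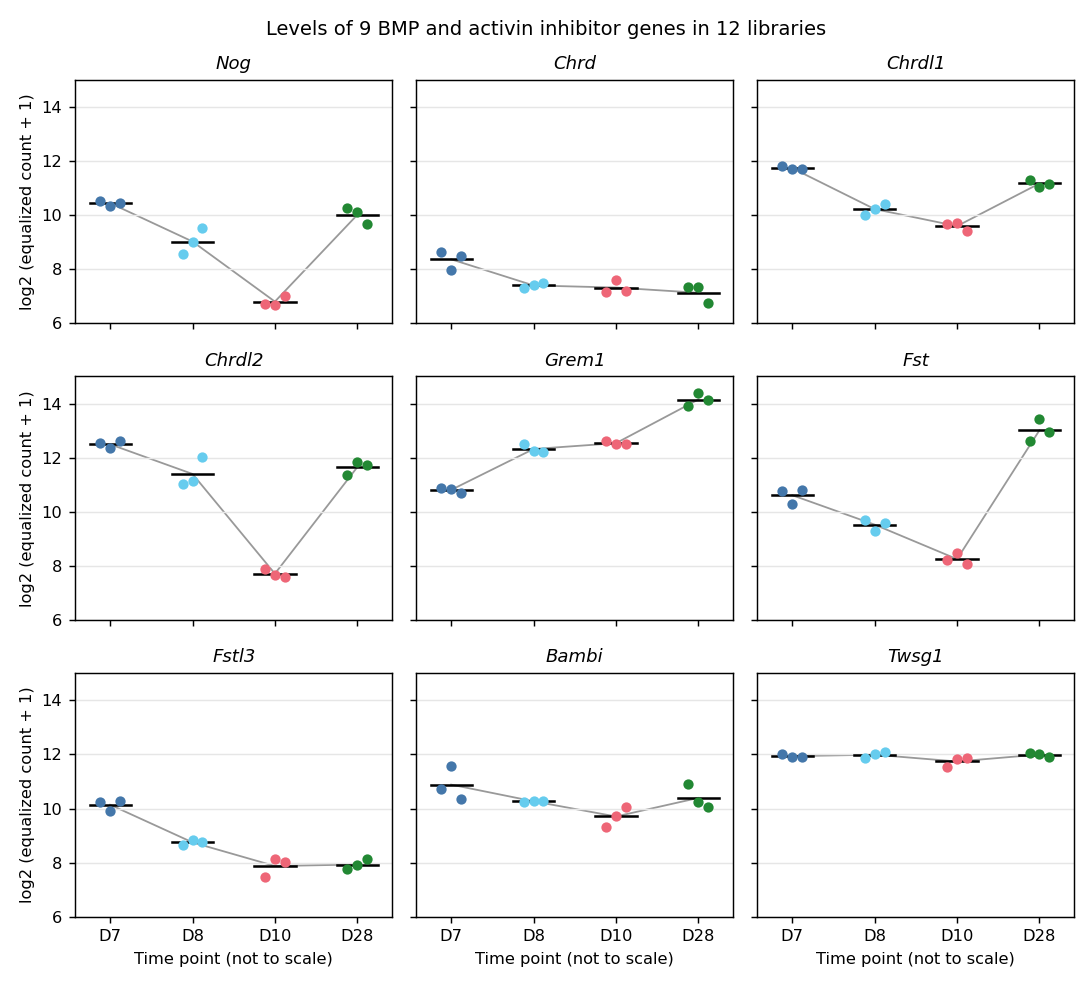
Level of each gene in each of the 12 libraries, on the log2 (equalized count + 1) scale, by time point (spaced evenly, not to scale). Points are libraries, black bars are means of 3 and grey lines join the means. Nog and Chrdl2 dip to 6.80 and 7.71 at D10, Grem1 climbs to 14.15 at D28, and Twsg1 stays between 11.74 and 11.99.

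Among the BMP traps, Chrdl2 moved furthest. Chrdl2 was at 12.53, 12.34 and 12.61 in the D7 libraries and at 11.04, 11.15 and 12.01 at D8. At D10 it was at 7.88, 7.68 and 7.57, and at D28 at 11.36, 11.84 and 11.75. All D10 libraries lay far below every other library, while D8 and D28 overlapped. The fall from D7 to D10 was 4.78 on the log2 scale (standard error 0.20, adjusted p = 4.3e-10, 27.5-fold), the 39th largest fall of all tested genes. Most of it came between D8 and D10, where the difference was -3.68 on the log2 scale (standard error 0.20, adjusted p = 5.6e-08), the 21st largest fall in that comparison. By D8 only 22.9% of the D10 change had been made. The D8 step itself, -1.10 (adjusted p = 0.0013), was called with all replicates, but without replicate 1 it was -0.90 (adjusted p = 0.027), which is under the fold threshold. From D10 to D28 Chrdl2 rose 15.3-fold (log2 fold change 3.94, standard error 0.20, adjusted p = 4.8e-10). This regained 82.3% of the loss, and D28 against D7 was -0.84 (95% interval -1.27 to -0.41, adjusted p = 0.0038), short of the fold threshold. Without replicate 2 that difference was -1.02 (adjusted p = 0.011) and was called.

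Nog was likewise highest at D7 and lowest at D10. Nog stood at 10.52, 10.34 and 10.46 at D7, and at 8.58, 8.99 and 9.51 at D8. It was at 6.72, 6.69 and 7.00 at D10, and at 10.26, 10.10 and 9.67 at D28. The time points did not overlap, with D10 lowest, then D8, D28 and D7. Noggin transcript fell 2.67-fold in the first day (log2 fold change -1.42, standard error 0.20, adjusted p = 0.00015) and 12.5-fold by D10 (-3.64, standard error 0.20, adjusted p = 3.5e-09), the 159th largest fall. It then rose 9.22-fold to D28 (3.20, standard error 0.20, adjusted p = 3.8e-09) and regained 88.1% of the loss. D28 against D7 did not pass (-0.43, 95% interval -0.86 to -0.01, adjusted p = 0.10). D28 against D8 was 0.99 (adjusted p = 0.00092) and was called only when replicate 3 was left out (1.39) or with median-of-ratios scaling (1.09), among the settings tried with a fold threshold.

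Chrdl1 changed early. Chrdl1 stood at 11.80, 11.70 and 11.71 at D7 and went to 10.01, 10.23 and 10.42 at D8. It had 9.66, 9.70 and 9.42 at D10 and 11.30, 11.05 and 11.15 at D28. No time points overlapped, and the spread within each was small, with SDs between 0.05 and 0.21 (n = 3). It fell by 1.51 on the log2 scale in the first day (standard error 0.12, adjusted p = 1.1e-06), which was 70.6% of the 2.14 by which it fell to D10 (standard error 0.12, adjusted p = 3.5e-09, 4.41-fold). The return to D28 was 2.98-fold (1.57, standard error 0.12, adjusted p = 3.1e-08). Chrdl1 ended lower than at D7 by less than the fold threshold (-0.57, 95% interval -0.82 to -0.32, adjusted p = 0.0014). Against D8 it was higher at D28 by 0.95 (adjusted p = 1.1e-05), which passed the fold threshold without replicate 2 (1.01), without replicate 3 (1.05) and with median-of-ratios scaling (1.05).

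Chrd, the founding member of this group of traps, behaved otherwise. It was at 8.62, 7.97 and 8.50 at D7, and at 7.30, 7.42 and 7.48 at D8. At D10 it was at 7.15, 7.62 and 7.20, and at D28 at 7.33, 7.33 and 6.73. Every D7 library was above all others, and the later time points overlapped. Of its D10 change, 92.5% was already present at D8 (-0.97, standard error 0.21, adjusted p = 0.0046, just under the fold threshold, and -1.17 without replicate 2 or -1.02 with median-of-ratios scaling). D10 against D7 was -1.04 (standard error 0.21, adjusted p = 0.0011), and the call was lost without replicate 1 (-0.83, adjusted p = 0.037) or replicate 3 (-0.91, adjusted p = 0.023). There was no return: D28 against D10 was -0.19 (95% interval -0.65 to 0.26, adjusted p = 0.48). D28 against D7 was -1.24 (standard error 0.21, adjusted p = 0.00029) and -0.97 (adjusted p = 0.019) without replicate 3, which ended the call.

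Grem1 was the riser of the set. Grem1 was at 10.87, 10.86 and 10.70 at D7, and at 12.49, 12.26 and 12.21 at D8. It was at 12.60, 12.50 and 12.50 at D10, and at 13.91, 14.40 and 14.13 at D28. D7 was lowest and D28 highest in every library, while D8 and D10 lay side by side without overlap (difference 0.22, 95% interval -0.05 to 0.48, adjusted p = 0.21). The rise came as 2 steps: 2.85-fold in the first day (log2 fold change 1.51, standard error 0.12, adjusted p = 1.6e-06) and 3.06-fold between D10 and D28 (1.61, standard error 0.12, adjusted p = 3.7e-08). Over the osteogenic phase Grem1 rose 10.1-fold (3.34, standard error 0.12, adjusted p = 5.7e-11), the 220th largest rise of all tested genes.

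**Figure D2:**
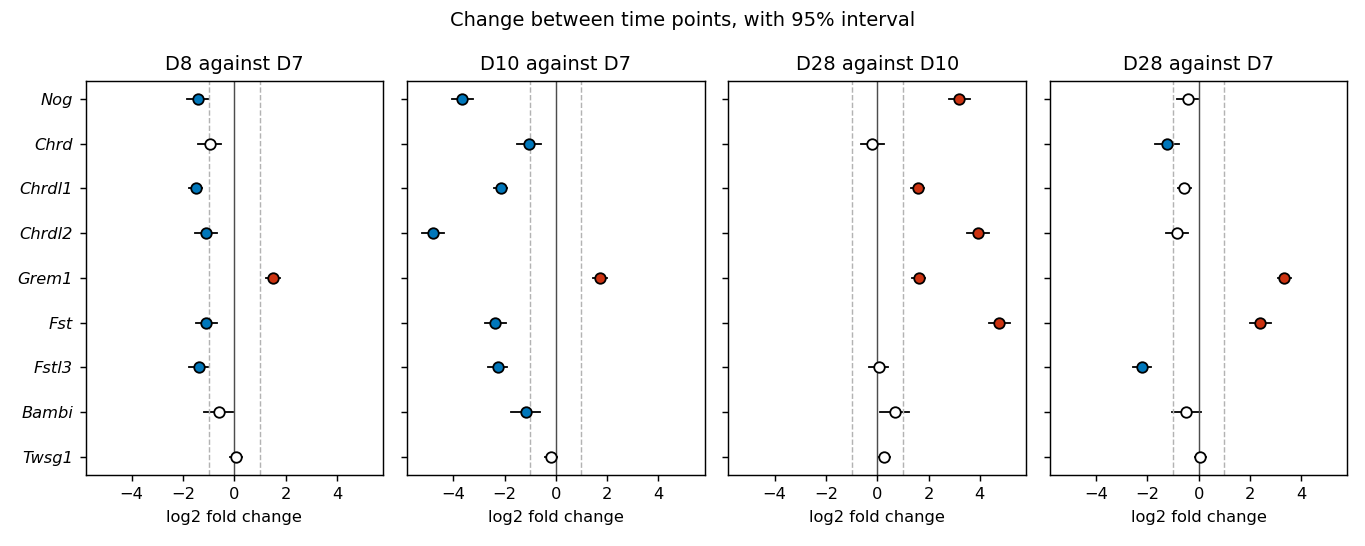
Log2 fold change of each gene (points) with its 95% interval (lines) in 4 comparisons. Blue points were called lower, red points called higher and open points not called, and dashed lines mark the fold threshold of 1. Grem1 lies right of 1 in each panel, Chrdl2 goes from -4.78 at D10 against D7 to 3.94 at D28 against D10, and Fst reaches 4.76 in the latter.

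The activin-binding pair parted after D10. Fst was at 10.75, 10.27 and 10.81 at D7 and at 9.71, 9.29 and 9.58 at D8. At D10 it was at 8.23, 8.46 and 8.06, and at D28 at 12.63, 13.43 and 12.97. No time points overlapped, and each neighbouring pair in the order D10, D8, D7 and D28 was called different. Follistatin transcript fell by 1.09 in the first day (standard error 0.19, adjusted p = 0.00087) and by 2.36 to D10 (standard error 0.19, adjusted p = 1.6e-07). It then rose 27.1-fold to D28 (log2 fold change 4.76, standard error 0.19, adjusted p = 3.1e-11), the 200th largest rise, and stood 5.27-fold above D7 (2.40, standard error 0.19, adjusted p = 1.4e-07).

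Fstl3 fell in the same way at first. It was at 10.24, 9.91 and 10.26 at D7 and at 8.65, 8.84 and 8.76 at D8. It was at 7.48, 8.13 and 8.01 at D10, and at 7.76, 7.90 and 8.13 at D28. D7 stood apart from D8, and D8 from the later time points, while D10 and D28 overlapped. The log2 fold change was -1.39 at D8 (standard error 0.17, adjusted p = 4.7e-05) and -2.26 at D10 (standard error 0.17, adjusted p = 7.5e-08), both against D7. From D10 to D28 it was 0.06 (95% interval -0.31 to 0.42, adjusted p = 0.81), so that Fstl3 regained 2.49% of its loss, against 202% for Fst. D28 against D7 was -2.21 (standard error 0.17, adjusted p = 9.5e-08, 4.62-fold lower).

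Bambi (chr18:3507923-3516404, GRCm38, plus strand) varied most between replicates of the 9 genes at D7, D10 and D28, and least at D8 (SD 0.04). It was at 10.72, 11.58 and 10.35 at D7 and at 10.22, 10.29 and 10.29 at D8. It was at 9.33, 9.72 and 10.07 at D10, and at 10.89, 10.24 and 10.05 at D28. D28 overlapped each of the other time points, while the D10 libraries lay under those of D8 and the D8 libraries under those of D7. D10 against D7 was -1.18 (standard error 0.27, adjusted p = 0.0023), and without replicate 2, which holds the highest D7 value, it was -0.83 (adjusted p = 0.031) and was not called. D28 against D10 was 0.69 (adjusted p = 0.042), short of the fold threshold, and 1.04 (adjusted p = 0.0083) without replicate 3.

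Twsg1 was the steady gene of the set. Its D7 libraries ranged from 11.89 to 11.996, with 11.91 between them, and its D8 libraries were at 11.87, 12.01 and 12.08. It was at 11.53, 11.83 and 11.85 at D10, and at 12.06, 12.02 and 11.91 at D28. The D10 libraries were the lowest, and the other time points overlapped. It was called in none of the 6 comparisons. The lowest of its log2 fold changes was -0.25 (D10 against D8, 95% interval -0.48 to -0.03, adjusted p = 0.087) and the highest 0.26 (D28 against D10, 95% interval 0.03 to 0.48, adjusted p = 0.05).

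Read by comparison, the first day of osteogenic medium called 5 genes lower (Nog, Chrdl1, Chrdl2, Fst and Fstl3) and Grem1 higher, against 3.81% and 3.23% of all tested genes. The next days, D10 against D8, called 3 lower (Nog, Chrdl2 and Fst; 5.58% of all genes), and limma called no member higher (4.08% of all genes), with no member that was higher at an unadjusted p under 0.05 either. The number called was 5 when the fold threshold was dropped, while the share of all genes called in either direction went from 9.66% to 28.8%. D28 against D10 called 5 genes higher (Nog, Chrdl1, Chrdl2, Grem1 and Fst; 13.8% of all genes). None was called lower (13.7% of all genes), nor was any lower at an unadjusted p under 0.05. The members' median was 1.57 there, and that of all genes -0.10. With median-of-ratios scaling the median of all genes moved to 0.01, and the same 5 members were called.

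D28 against D8, the same medium at 21 days and 1 day, called Grem1 (1.83, adjusted p = 1.7e-08) and Fst (3.49, adjusted p = 1.8e-09) higher, with 10.0% of all genes called higher and 9.70% lower. None of the 9 was called lower by limma, and Fstl3 alone was lower at an unadjusted p under 0.05 (-0.82, adjusted p = 0.0012). The number of members called depended on the setting, being 4 without replicate 3 (17.7% of all genes in either direction) and with median-of-ratios scaling (19.5%), against 2 with the values as deposited (19.7%). D28 against D7, the whole osteogenic phase, called Grem1 and Fst higher and Chrd and Fstl3 lower, against 8.63% and 8.66% of all genes.

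Levels of different genes were compared only per length, as the unlogged equalized count per kb of exon. At D7 the most abundant was Chrdl2, with 1580 ± 149 (SD, n = 3) per kb, followed by Nog with 821 ± 51, Twsg1 with 759 ± 29, Chrdl1 with 504 ± 19, Fstl3 with 463 ± 61 and Grem1 with 433 ± 28. Fst was at 346 ± 66 and Chrd, the scarcest, at 53.5 ± 11.9. At D10 Grem1 (1432 ± 60) and Twsg1 (665 ± 80) led, and Nog (65.7 ± 8.2), Fst (66.6 ± 9.6) and Chrdl2 (57.3 ± 6.3) were within their spread of each other. At D28 Grem1 was at 4420 ± 762 and Fst at 1846 ± 522, ahead of Chrdl2 at 886 ± 150, Twsg1 at 793 ± 41 and Nog at 616 ± 123. Bambi, a membrane protein and therefore counted apart, was at 397 ± 183 at D7 and 168 ± 42 at D10.

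The makeup of the secreted antagonist pool changed with these levels. Grem1 made up 8.77 ± 0.99% (SD, n = 3) of the summed per-kb level of the 8 secreted genes at D7, and this share went to 34.2 ± 6.3% at D8, 56.7 ± 3.3% at D10 and 48.9 ± 1.4% by D28. Chrdl2 went the other way, from 31.8 ± 1.3% to 20.7 ± 5.8%, 2.27 ± 0.28% and 9.82 ± 0.85%. Fst made up 20.2 ± 2.6% at D28 and 2.64 ± 0.35% at D10. The summed level was 4960 ± 337 per kb at D7, 3659 ± 394 by D8, 2524 ± 43 by D10 and 9025 ± 1371 at D28. Without Grem1 it was 4527 ± 349, 2422 ± 484, 1093 ± 100 and 4605 ± 618, and D28 overlapped D7. That sum holds members that went opposite ways, since Fst was far higher at D28 than at D7. Without Grem1 and Fst, the remaining 6 genes summed to 4182 ± 283 per kb at D7, 1026 ± 98 at D10 and 2758 ± 129 at D28, where every library was below those of D7.

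**Figure D3:**
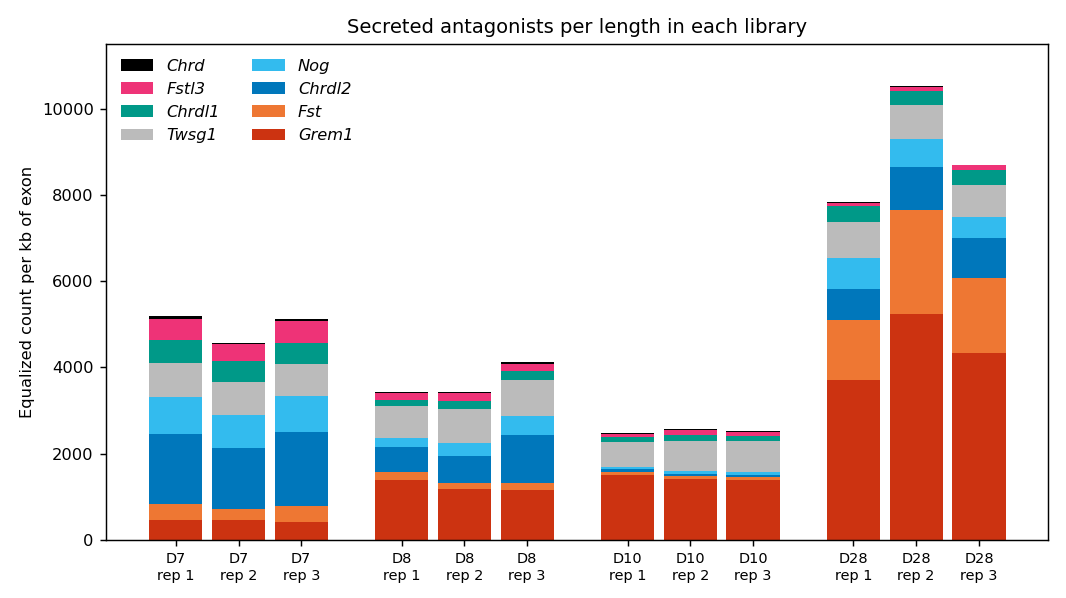
Stacked equalized count per kb of exon of the 8 secreted antagonists in each library, with the time point and replicate under each bar and the axis starting at 0. Total bar height is lowest at D10 (2479 to 2566) and highest at D28 (7846 to 10530), and Grem1 fills 54.5% to 60.5% of each D10 bar.

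The BMP and GDF ligand genes did not share a single course. Of 19 such genes, 16 were tested. D10 against D7 called 2 higher and 4 lower, D28 against D10 called 5 higher and 4 lower, and D28 against D7 called 3 higher and 4 lower. Bmp3, Bmp4 and Bmp8a were called lower in D10 against D7 and higher in D28 against D10, as Nog, Chrdl1 and Chrdl2 were. Bmp2, an osteogenic ligand, rose from 6.83 ± 0.28 (SD, n = 3) at D7 to 8.91 ± 0.08 at D8 and 10.12 ± 0.66 at D10 (log2 fold change D10 against D7 3.29, standard error 0.27, adjusted p = 1.6e-07) and was at 7.04 ± 0.36 at D28. Bmp8a fell by 3.25 to D10 (adjusted p = 3.5e-08) and rose by 1.74 from there to D28 (adjusted p = 1e-05). Between D7 and D28, Bmp7 fell by 4.41 (adjusted p = 1.3e-08) and the joint ligand gene Gdf5 by 2.20 (adjusted p = 5.3e-07), while Gdf6 rose by 3.64 (adjusted p = 2.4e-05) from 3.63 ± 0.32 to 7.27 ± 0.30.

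Sums on the per-kb scale put the antagonists beside the listed ligand genes. The BMP side sums all 19 BMP and GDF genes and was not limited to ligands known to bind these traps. Gdf10 was the most abundant of the 19 at D7, with 479 ± 106 per kb. The grouping into 5 BMP traps (Nog, Chrd, Chrdl1, Chrdl2 and Grem1) and the activin pair (Fst and Fstl3) was made after the values had been seen, so these ratios are a description. BMP traps stood at 1.96 ± 0.12 times the 19 ligands at D7, 1.64 ± 0.13 times at D8, 1.39 ± 0.48 times at D10 and 5.90 ± 1.27 times at D28. The D10 value rests on uneven libraries: the ligand sum was 909 per kb in replicate 1 against 1411 and 1569 in the others, and the ratio was 1.95, 1.18 and 1.05. It overlapped both D7 and D8, and only D28 stood apart from all. Grem1 set much of this course. Without it, the other 4 traps stood at 1.70 ± 0.08 times the ligands at D7, 0.835 ± 0.232 times at D8, 0.216 ± 0.070 times at D10 and 1.74 ± 0.22 times at D28, so that D10 was lowest and D28 overlapped D7.

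On the activin side the contrast was wider and the ratios of the 4 time points did not overlap. Of the 5 activin and inhibin subunits, 4 were tested. Inhba, the subunit of activin A, went from 10.53 ± 0.11 at D7 to 11.27 ± 0.09 at D8, 12.43 ± 0.33 at D10 and 8.70 ± 0.14 by D28. It was called higher at D10 (1.91, standard error 0.14, adjusted p = 5.4e-08) and lower at D28 (-1.83, standard error 0.14, adjusted p = 8.1e-08), both against D7. Fst was called in the opposite direction in both comparisons. Inhbb also rose to D10 (1.31, adjusted p = 0.00012), and Inhbe, a subunit best known from liver, fell by 3.74 to D28 (adjusted p = 5.2e-06). The ratio of Fst and Fstl3 to the 5 subunits went from 2.45 ± 0.36 at D7 down to 0.625 ± 0.042 by D8 and 0.158 ± 0.026 by D10, and then up to 10.8 ± 3.3 at D28. Inhba made up 83.2 ± 4.7% of the subunit sum at D10 and 36.0 ± 4.5% at D28.

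**Figure D4:**
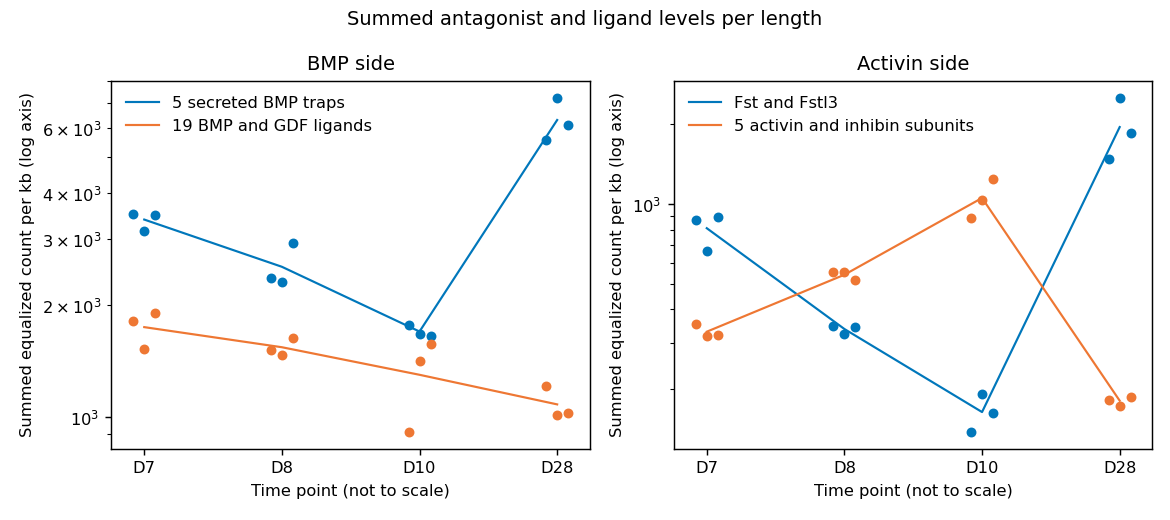
Summed equalized counts per kb of exon on log axes, for 5 BMP traps and 19 BMP and GDF ligands (left) and for Fst with Fstl3 and 5 activin and inhibin subunits (right). Points are libraries and lines join the means of 3. The activin-side curves cross between D7 and D8 and again between D10 and D28, with ratios of 2.45, 0.625, 0.158 and 10.8 at the 4 time points.

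Other secreted antagonists changed as well. Of 16 listed, 13 were tested, and D10 against D7 called 4 lower, and D28 against D10 called 5 higher. Kcp, a chordin-repeat protein that can enhance BMP signaling, was at 7.05 ± 0.72 at D7, 4.92 ± 0.05 at D10 and 4.22 ± 0.37 at D28 (D28 against D7 -2.83, adjusted p = 2.4e-05). Sostdc1, an inhibitor of BMP and Wnt, was at 6.50 ± 0.33 at D28 and held at most 3 reads in every D7 and D10 library, and Vwc2, called lower at D10, was at 0 in all D10 libraries. Bmper, a chordin-like BMP binder that was singled out after its values had been seen, fell by 1.80 to D10 (adjusted p = 2.9e-06) and rose by 3.40 from there to D28 (adjusted p = 1.5e-09).

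Inside the cell, 2 of 6 inhibitors of SMAD signaling were called higher at D10 against D7. The ubiquitin ligase gene Smurf1 rose by 1.60 (standard error 0.17, adjusted p = 1.9e-06) and Smad7, an inhibitory SMAD, by 1.11 (standard error 0.15, adjusted p = 2.4e-05), in the comparison in which 7 of the 9 antagonists fell. Between D10 and D28, 4 of 6 were called lower, and Skil ended 1.65 below its D7 level (log2 fold change -1.65, adjusted p = 2.1e-08). Of 6 SMADs that carry the signal, Smad9 alone was called, in D28 against D10 (1.14, adjusted p = 4.6e-05).

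Receptors and targets were called in both directions. Of 12 receptors and co-receptors, D10 against D7 called 1 higher and 4 lower and D28 against D10 called 5 higher. Acvr1b, an activin type I receptor gene, was at 9.92 ± 0.27, 8.78 ± 0.22, 8.11 ± 0.04 and 9.96 ± 0.07 at D7, D8, D10 and D28 (D10 against D7 -1.81, adjusted p = 1.1e-07). Acvrl1, a BMP9 receptor of endothelium, was 1.51 higher at D28 than at D7 (adjusted p = 8.6e-05), and Acvr1c was at 5.84 ± 0.10 at D28 with at most 3 reads in every D7 library. Of 9 BMP target genes, D10 against D7 called 2 lower, namely Id3 (-1.42, standard error 0.20, adjusted p = 4.8e-05) and Msx1 (-1.06, adjusted p = 0.0038), and Hey1 higher (1.05, adjusted p = 0.00085). At D28 against D7, Id4 was higher by 2.97 (adjusted p = 1.4e-06) and Msx2 by 1.37 (adjusted p = 0.0049). The target list had a median log2 fold change of 0.83 in D28 against D10, with 4 genes called higher, while the 9 antagonists had a median of 1.57.

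Proteases that cut chordin moved too. Bmp1, which encodes the main one, fell by 1.61 to D10 (standard error 0.20, adjusted p = 1.2e-05), and Tll1 fell by 2.41 between D7 and D28 (standard error 0.21, adjusted p = 3.8e-07). Tll2 was at 0 in all D7 and D10 libraries and at 2.12 ± 0.50 at D28.

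For each antagonist, the genes with the most similar level over the 12 libraries were sought among 12180 genes. The libraries share 4 time points, so these correlations describe likeness of time course only. Chrdl2 was closest to Matn3, a cartilage matrix gene (Pearson r = 0.99), and to Sept5 (0.98), and Nog to Daam2 and Nrbp2 (both 0.98). Matn3 went from 12.66 ± 0.27 at D7 to 8.29 ± 0.22 at D10 and 11.97 ± 0.18 at D28. Fst was closest to Dpep1 and Gas6, both with r of 1.00 after rounding. Gas6, a ligand of TAM receptors, was at 13.74 ± 0.53, 12.64 ± 0.27, 11.17 ± 0.16 and 16.06 ± 0.14 at D7, D8, D10 and D28, so that it ended above D7 as Fst did. Grem1 was closest to Igfbp5 (0.99), an IGF-binding protein gene, and to Adig (0.98), an adipocyte gene that was at 4.64 ± 0.08 at D7 and 9.03 ± 0.33 at D28. The remaining genes were Actn3 and Nynrin (both 0.98) for Chrdl1, Mdga1 and Col8a2 (both 0.98) for Fstl3, Lyn (0.97) and Tmem263 (0.95) for Chrd, Cd24a (0.97) and Adk (0.95) for Bambi, and Mdfi (0.92) for Twsg1.

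Markers of several cell types also changed between the time points. In a whole pellet, fewer cells of a type and less RNA per cell cannot be told apart. In D10 against D7, where Nog, Chrdl1 and Chrdl2 fell, 6 of 8 adipocyte, 7 of 8 skeletal muscle and 4 of 6 tendon and fibroblast markers were called lower. Of 8 macrophage markers, 3 were called lower and 2 higher, and of 6 endothelial markers 1 was called higher. In the same comparison 7 of 10 chondrocyte markers and 4 of 5 hypertrophic markers were called lower, and in D28 against D10, 6 and 4 of them were called higher. The hypertrophic gene Col10a1 did not share this course, with levels of 17.27 ± 0.11 at D7, 18.10 ± 0.39 at D10 and 14.28 ± 1.22 at D28. It was called lower in D28 against D10 (-3.82, adjusted p = 2.7e-06) and not called in D10 against D7 (0.83, adjusted p = 0.14). The summed hypertrophic level was 188730 to 233059 at D7, 211743 to 342622 at D10 and 61778 to 105269 at D28. Col2a1 sat at the highest value of the data, 20.92, in all D7, D8 and D28 libraries and at 19.87 in all D10 libraries. Equalization gave every library this same maximum, so these values show the rank of Col2a1 and not how far its level changed. Sox9 was not among the markers called lower in D10 against D7 (0.06, adjusted p = 0.82). Adipocyte markers were 8 of 8 higher at D28 against D7, as Grem1 and Fst were, with a summed level of 6152 to 6688 at D7, 2477 to 2735 at D10 and 59635 to 82627 at D28. Earlier, in D8 against D7 and D10 against D7, 4 and 6 of these 8 markers were called lower, while Grem1 was called higher and Fst lower. Skeletal muscle markers were 8 of 8 lower in D28 against D7, from 3431 to 4202 at D7 down to 135 to 262 at D28. The part of these cell types in the antagonist results was not tested.

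D28 replicate 2 had a macrophage marker sum of 5767, against 1342 and 1407 in the other D28 libraries, and it held the highest D28 values of Grem1 and Fst. Without replicate 2 of every time point, D28 against D7 was 3.24 for Grem1 (adjusted p = 5e-08) and 2.02 for Fst (adjusted p = 2.4e-06), both still called higher. Endothelial markers were low throughout, with a summed level between 15.5 and 235. Tie1 was at 0 in all D10 libraries, and at least 1 library at every time point lacked Tie1 reads.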

How the data were processed

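RNA was sequenced from 12 pellet libraries, 3 per time point. According to the submitters' processing notes and the methods, the authors trimmed reads with Trimmomatic 0.36, aligned them with HISAT2, annotated them with Cufflinks, counted genes with HTSeq, and equalized and transformed the counts. The deposited values are on a log2 scale, taken after 1 was added to each equalized count, and behave as after quantile normalization. The supplementary methods name a human genome, while the processing notes give GRCm38 and the symbols are mouse. Every column was matched to its sample (0 left unmatched).

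The test covered 17674 genes that reached a log2 level of 1 in 3 or more libraries. Means of the 4 time points were fitted over all libraries with limma 3.58.1 in R 4.3.3, with a variance trend, two-sided moderated p-values and Benjamini-Hochberg adjustment over all tested genes. The scripts were tested on simulated data. Intervals are 95% and come from the same fit. Figures and sums were made with Python 3.11.15, pandas 2.3.3, numpy 2.4.6 and matplotlib 3.10.9. Levels per kb divide unlogged values by exon length in GENCODE M21 (GRCm38).

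The members, the pathway lists and the marker lists were chosen with earlier results of these data known, and the promoter motifs and per-kb subgroups after the values were seen. Genes named from a list were those called in D10 against D7 or D28 against D7 with the largest changes, up to 3 per list and up to 5 for ligands and targets. For likeness, the 2 genes per member with the highest Pearson correlation and a mean of at least 5 were taken. Some genes that these rules select, and their direction counts, are not reported here. Alternatives changed the filter, scaling, pseudocount, replicate term, variance trend, fold threshold and test, and left out each replicate. Batches were not examined, since the labels carry no run or date.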

Additional observations from a re-analysis of the deposited data

How the results depend on the processing

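Of 54 fold changes of the 9 genes over 6 comparisons, 36 kept their direction and their side of the threshold under all 12 alternatives, and 18 did not. The number of members called in D10 against D8 was 3, and 5 with no fold change threshold, where the share of all genes called went from 9.66% to 28.8%. In D28 against D8 it was 2, and 4 with median-of-ratios scaling, 5 with no fold change threshold, and 2 to 4 when a replicate was left out. The share of all genes called in that comparison was 19.7%, and 17.1% to 18.4% when a replicate was left out. It was 19.5% with median-of-ratios scaling and 41.3% with no fold change threshold, so 5 of 9 members is to be read against the latter. Leaving out a replicate gave 5 to 7 members in D8 against D7 (6 with all), 7 in D10 against D7 whichever was left out (8 with all), 5 to 6 in D28 against D10 (5 with all) and 3 to 5 in D28 against D7 (4 with all). The share of all genes called in these fits was 5.35% to 6.13% in D8 against D7 (7.04% with all) and 15.73% to 20.45% in D10 against D7 (18.9% with all). It was 25.2% to 26.4% in D28 against D10 (27.5% with all) and 14.9% to 16.0% in D28 against D7 (17.3% with all). Directions that turned when 1 replicate was left out belonged to differences that were not called. Leaving out each replicate gave -0.012 to 0.15 for Twsg1 in D8 against D7, -0.22 to 0.025 for Chrd in D10 against D8, and -0.057 to 0.20 for Fstl3 in D28 against D10. In D28 against D8 it gave -0.15 to 0.31 for Bambi and -0.084 to 0.094 for Twsg1. The turned values were -0.012, 0.025, -0.057, -0.15 and -0.084. The cause was not tested.

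A fit with a replicate block called 6, 3, 8, 5, 2 and 4 members in D8 against D7, D10 against D8, D10 against D7, D28 against D10, D28 against D8 and D28 against D7, and changed no call of a member. Over all genes it called 1488 higher and 1838 lower in D10 against D7, against 1502 and 1838 without it. Libraries with the same number did not deviate together, with 18 correlations between -0.058 and 0.066, of which 0 were over 0.1, and 3 of 12 libraries correlated best with their own number, so the numbers were not taken as pairs.

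Equalization removes the library totals, so depth limits only the lowest levels, and counting error at the levels of these genes could not be computed. Without strand information for the counting, reads of antisense partners cannot be told apart from those of Fstl3, Chrd and Fst.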
